A study of Apeltes quadracus with 85 samples.

Results

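Of the 28920 bins of 10 kb that held at least 1 listed variant site in fry of the stickleback Apeltes quadracus, 318 (1.10%) were chosen by their read levels in the dorsal fin, DF, and in the anal fin, AF, as high in both. The read level of a bin is its number of allele-counted reads for every 1 M such reads in the library (RPM), where M is the usual prefix mega. A bin was a member when its means over the 11 fish in DF and in AF were both at least 1 RPM and both at least 2 times the highest mean of the dorsal spines DS1, DS2 and DS3, numbered from the front, the last dorsal spine (DSL) and the blank pterygiophore (Pter, a bone of the dorsal midline without a spine). Both fin means reached 1 RPM in 17217 bins, and 318 is 1.85% of these. By the same rule 353 bins were high in DF and not AF, and 57 were high in AF and not DF. The fin levels chose the members, so fins against these 5 tissues is a description throughout, without a test.

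The study sequenced RNA of dissected spines and fins of single fry to compare tissues and the alleles of the HOXDB cluster of Hox genes. The fry came from laboratory clutches of the Louisbourg population, were raised at 16 °C in 10% seawater to a length of 11 to 13 mm, and were taken at the finfold stage (stage 31). All 11 carried 2 different HOXDB haplotypes, with 4 fish of genotype H/L, 3 of H/LHR and 4 of L/LHR, where H is the haplotype linked to a high spine number, L the one linked to a low number, and LHR a recombinant of both. The 85 libraries were 1 for each of the 8 tissues of a fish, apart from dorsal spine 4 (DS4), which was sequenced in 8 fish and took no part in the rule.

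Dorsal and anal fins are median, or unpaired, fins. They develop from a fold of skin along the midline, in which bony fin rays supported by inner bones called pterygiophores form, whereas a dorsal spine is a single stiff ray-like bone with little fin web. In fishes and other vertebrates, Hox genes give parts of the body axis their regional identity, and genes of fin outgrowth, fin ray formation and skin are active in such fins. The files carry no gene names for this assembly, so a bin is given by its position only and may hold part of a gene, a whole gene or several. In bulk tissue, fewer cells of a type and less RNA per cell cannot be told apart.

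The libraries held 2.15 to 46.6 M allele-counted reads (median 35.2), and the 22 fin libraries 25.4 to 46.6 M. Under 10 M were found in 6 libraries, none of them a fin and 5 of them among the 55 libraries of the 5 tissues set against the fins. The bin of HOXD11B and HOXD9B, chr06:16020001-16030000, served as a check of the tissue labels and was not a member. It averaged 13.1 ± 3.53 RPM in DF and 13.3 ± 2.90 in AF, against 43.0 ± 11.1 in DSL, 21.03 ± 5.82 in Pter, 14.1 ± 6.06 in DS3, 1.43 ± 0.97 in DS2 and 0.0994 ± 0.12 in DS1 (SD, n = 11 each). DS4 averaged 22.2 ± 2.19 RPM (SD over 8 fish). The study left DS1 and DS2 out of its allele comparison for low read counts, and the bin was lowest in these 2 tissues here. The check does not tell the other labels apart.

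Most members lay close to the threshold. The ratio of the lower fin mean to the highest of the 5 other means had a median of 2.18 and ran from 2.00 to 55.2. It reached 2.5 in 63 members, 3 in 41, 5 in 19, 10 in 11 and 20 in 5. Just inside the threshold stood chr11:10420001-10430000, chrUn:20370001-20380000 and chr19:15560001-15570000, with 7.78, 33.7 and 13.0 RPM as the mean of both fins. Just outside stood chr18:4700001-4710000, chr17:17610001-17620000 and chr21:13190001-13200000, with 23.3, 2.23 and 129 RPM.

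The number of members depended on what the read level was divided by. Across the 17217 bins the lower fin mean was above the highest other mean in 65.4%, with a median ratio of 1.10. The 10 most-read bins took 16.9% of the reads in DF and 17.7% in AF, against 19.5% in DSL, 20.4% in DS1, 21.2% in DS2, 22.1% in Pter and 22.4% in DS3. The median bin was higher in DF than in DSL by 0.29 on the log2 scale and than in Pter by 0.59, and higher in AF by 0.23 and 0.52. With the effective library sizes of edgeR (TMM, a scaling that takes most bins as unchanged between libraries), 59 bins passed the rule, and all 59 were among the 318. The same number passed with DESeq2 size factors. The TMM factors averaged 1.24 in DF and 1.201 in AF, against 0.877 in Pter to 1.03 in DSL, so that this scaling lowers fin levels against the others in general. The ratio alone stayed at 2 or more in 64 members, which included the 41 with a ratio of at least 3 by library totals.

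The members were also counted fish by fish. These counts come from the same fin and other levels that chose the members, and a large mean ratio goes with many fish by construction, so they are a description. A single fish passed when its own DF and AF libraries were both above 0 and at least 2 times the highest of its own 5 other tissues. The minimum of 1 RPM was not asked of a single fish in these counts. All 11 fish passed in 17 members (5.35%), against 0.0987% of bins with both fins at 1 RPM or more, and each of the 17 had a ratio of at least 3. At least 6 fish passed in 49 members (15.4%), against 0.296%. Both shares of all bins include the members themselves. A bin with both fins at 1 RPM or more that all 11 fish pass is a member by construction. The median number of fish was 10 in the 41 members with a ratio of at least 3 and 2 in the other 277. With the minimum of 1 RPM in both fins added, between 42 (H/LHR replicate 1) and 172 (L/LHR replicate 1) members passed in 1 fish.

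**Figure D1:**
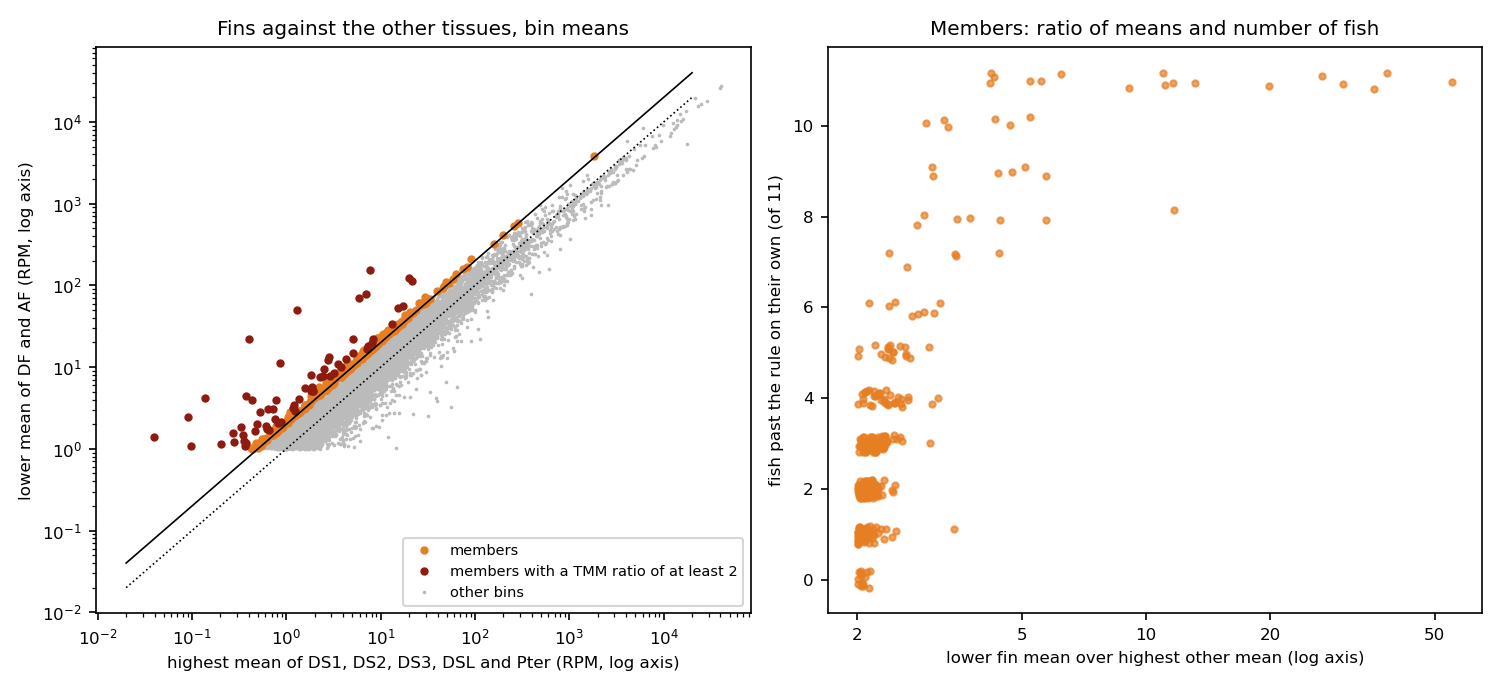
Left, the lower of the DF and AF means against the highest mean of DS1, DS2, DS3, DSL and Pter, in RPM on log axes, for bins with both fin means of at least 1. The solid line is a ratio of 2 and the dotted line a ratio of 1. Right, the same ratio for the 318 members against the number of fish that passed the ratio of 2 on their own, without the minimum of 1 RPM. Points are spread slightly up and down. Members with a ratio of at least 3 had a median of 10 fish and the others a median of 2.

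The lowest of the 22 fin libraries was above the highest of the 55 other libraries in 36 members, against 0.296% of all bins with both fins at 1 RPM or more, a direction that the choice of members favours. Without the libraries under 10 M reads it was so in 39 members, against 0.337%. Of the 36, 22 had a ratio of at least 3.

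The largest ratios belonged to 2 neighbouring bins on chromosome 3. In chr03:11820001-11830000 (rank 1 by ratio, 55.2) the lowest, median and highest levels were 10.5, 23.3 and 38.8 RPM in DF and 7.89, 22.7 and 45.5 in AF, against 0, 0.180 and 2.25 in DS1 and 0, 0.176 and 0.418 in DSL. In chr03:11810001-11820000 (rank 2, 38.4) they were 28.3, 51.0 and 88.0 RPM in DF and 9.96, 47.4 and 95.7 in AF, against 0.429, 0.947 and 4.55 in DS1 and 0.538, 1.23 and 2.85 in DSL. Fin and other libraries did not overlap in either bin, and each of the 11 fish passed the rule in both. With the median over fish in place of the mean, the ratio of the first was 126, and of its DS1 libraries the highest had 2.25 RPM and the next 0.751.

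A second stretch ran over 3 bins of chromosome 10, with unlike levels in the 3 bins. In chr10:12820001-12830000 (rank 6, ratio 19.9) the lowest, median and highest levels were 73.3, 163 and 218 RPM in DF and 61.2, 169 and 261 in AF, against 2.25, 6.06 and 18.5 in DS1 and 1.93, 2.78 and 5.25 in DSL. The bin before it, chr10:12810001-12820000 (rank 5, 26.7), averaged 2.44 ± 0.81 RPM in DF and 2.44 ± 1.1 in AF, against at most 0.0912 in the 5 other tissues. The bin after it, chr10:12830001-12840000 (rank 87), averaged 213 ± 47 RPM in DF and 240 ± 65 in AF, against 37.3 in Pter to 89.6 in DSL, a ratio of 2.37. Fin and other libraries did not overlap in the first 2 of these adjoining bins and overlapped in the last.

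Some bins of high ratio had few or no counted reads outside the fins. A site not listed in a library was counted as 0 reads. The sources do not say whether an unlisted site had no reads or no variant call. In chr16:9110001-9120000 (rank 3, 35.6) the 11 libraries together held 629 reads in DF and 543 in AF, against 14 in DSL and 0 in each of DS1, DS2, DS3 and Pter. It held only 2 sites, and 1 of them carried 99.7% of its reads, so its ratio rests on where that site was listed and read. In chr20:9570001-9580000 (rank 4, 30.0) the lowest, median and highest levels were 2.60, 3.92 and 6.46 RPM in DF and 1.36, 4.35 and 7.83 in AF, against 0, 0.164 and 0.269 in DSL and medians of 0 in DS1, DS2 and DS3. In chr12:10230001-10240000 (rank 12, 9.11) there were 1754 reads in DF and 2108 in AF, against 139 in DSL, 37 in Pter and 0 to 2 in each of DS1, DS2 and DS3. In chr08:12230001-12240000 (rank 11, 11.0) the means were 1.08 ± 0.41 RPM in DF and 1.34 ± 0.49 in AF, against at most 0.0980 in the 5 others and no read in Pter. No fin library was at 0 in any of these 4 bins, and none overlapped a library of the 5 other tissues.

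The other 4 of the 12 largest ratios lay on chromosomes 10, 16, 17 and 21. Bin chr10:9810001-9820000 (rank 7, 13.1) averaged 11.2 ± 1.3 RPM in DF and 14.0 ± 3.7 in AF, against 0.274 in DS1 to 0.853 in DSL. Bin chr16:15740001-15750000 (rank 9, 11.6) averaged 4.80 ± 1.3 RPM in DF and 4.37 ± 1.4 in AF, against 0.112 in Pter to 0.376 in DSL. Bin chr17:3420001-3430000 (rank 10, 11.1) had lowest, median and highest levels of 31.5, 89.7 and 114 RPM in DF and 33.2, 136 and 193 in AF, against 1.53, 6.17 and 12.05 in Pter, the highest of the others by its mean. These 3 bins did not overlap between fins and others, unlike chr21:12010001-12020000 (rank 8, 11.7). There the levels were 9.71, 79.3 and 170 RPM in DF and 12.9, 58.1 and 171 in AF, against 2.45, 4.21 and 19.4 in Pter, and 8 fish passed the rule. In DF and AF alike, H/L replicates 1, 3 and 4 and L/LHR replicate 3 had no more than 22.1 RPM and the other 7 fish at least 51.8. The bin before it, chr21:12000001-12010000 (rank 18, 5.23), averaged 112 ± 32 RPM in DF and 123 ± 67 in AF, against 19.6 in Pter to 21.5 in DS2 and DS3.

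**Figure D2:**
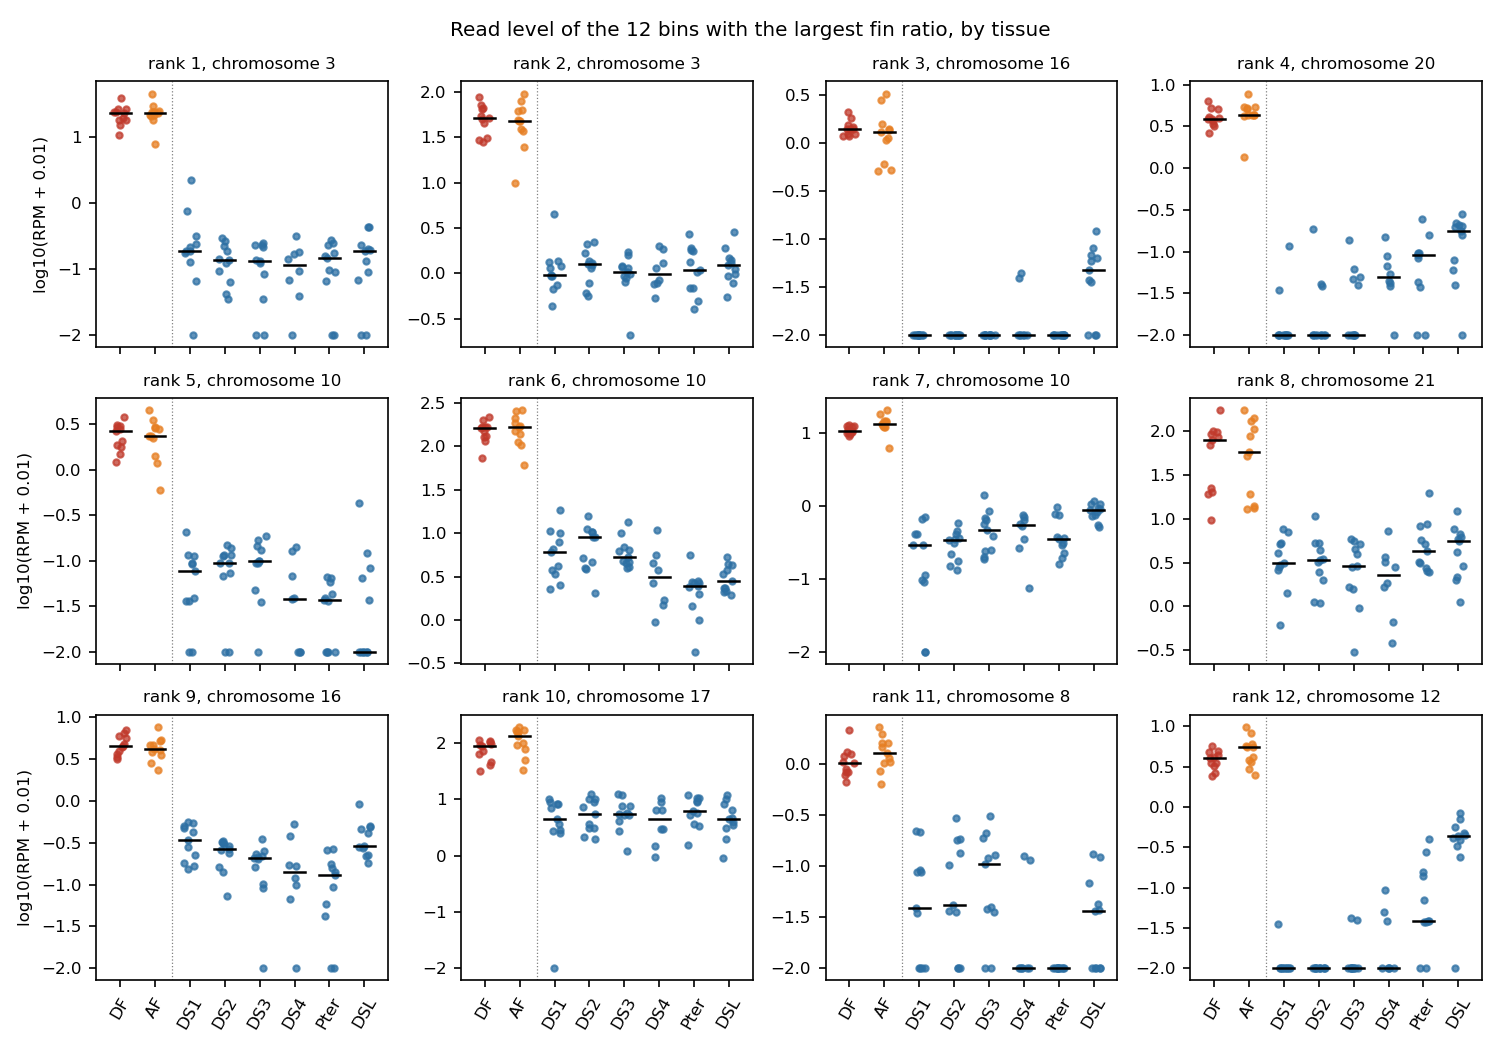
Read level in each library of the 12 members with the largest ratio, as log10 of RPM plus 0.01, so that a library without reads stands at -2. Columns are DF and AF, then the 6 other tissues, each point is 1 fish and each bar the median. Fin libraries lie above all libraries of DS1, DS2, DS3, DSL and Pter in every panel but rank 8, where single libraries of Pter (19.4 RPM), DSL (12.3) and DS2 (10.7) are above the lowest fin library (9.71).

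The members with the most reads had ratios near 2. Bin chr09:10160001-10170000 had the highest fin level, with means of 3829 RPM in DF and 4224 in AF, against 1191 in Pter to 1806 in DSL, and a ratio of 2.12. L/LHR replicate 3 had 10.5 RPM in DF, 18.9 in AF and 1.59 to 14.3 in the 5 other tissues, while each of the other 10 fish had at least 2094.59 RPM in DF. In chr04:1350001-1360000 (ratio 2.02) the lowest, median and highest levels were 145, 714 and 1204 RPM in DF and 117, 642 and 1224 in AF, against 67.7, 190 and 745 in Pter. In both bins a fish that was low in the fins was also low in its other tissues. The next by level were chr21:900001-910000 with means of 599 and 536 RPM in DF and AF, chr02:19690001-19700000 with 416 in both fins, and chr01:22060001-22070000 with 341 and 317. Each of these 5 bins passed the rule in 5 or fewer fish. More than 10% of reads were of low mapping quality in chr21:900001-910000 (11.6%) and chr04:1350001-1360000 (11.0%), as in 19 members in all, 5.97% of members against 5.90% of bins with both fins at 1 RPM or more.

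Membership often depended on the mean over fish, and in some members the mean rested on few fish. With the median over fish in place of the mean, 309 bins passed the rule, of which 202 were among the 318. The coefficient of variation over fish was above 100% in DF or AF in 12 members, 3.77%, against 0.987% of all bins, and 8 of the 12 lay in the unplaced sequence chrUn. In chr05:10660001-10670000 the levels were 0, 0 and 243 RPM in DF and 0, 0 and 299 in AF, against 0, 0.0374 and 135 in DSL, and 6 fish had no read in either fin. In chr11:4420001-4430000 they were 0, 0.267 and 7.83 RPM in DF and 0.0258, 0.191 and 13.7 in AF, against 0.0255, 0.133 and 1.26 in DS2, and the highest value in both fins was from H/L replicate 1. Sites differed in which fish they were listed for. In at least 1 library of each of the 11 fish, 82.7% of member sites were listed, against 83.6% of all sites, which include those of bins under 1 RPM. Listing was less complete over single libraries, where 69571 of the 513939 sites were listed in every library. In chr05:10660001-10670000 16 sites were listed in each of 4 fish and 0 or 1 in 5 fish. With only the sites listed in every library, 90 bins passed the rule, of which 69 were among the 318. Beyond this count, the part of listing in the levels was not tested.

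The members were spread over all 21 numbered chromosomes of the assembly and the unplaced sequence. The authors ordered their Apeltes sequence by alignment to another stickleback, Gasterosteus, on the assumption of similar chromosomes. Chromosome labels, and neighbours across joined pieces, therefore rest on that order. They made up 3.29% of the bins with both fins at 1 RPM or more in chrUn (37 members), 3.11% on chromosome 12 (26 members) and 2.86% on chromosome 10 (18 members), and 0.455% on chromosome 6 (3 members), which carries HOXDB. Of the 318, 86 had a member next to them, in 35 pairs, 4 stretches of 3 bins and 1 of 4, and neighbouring bins can share a gene. The longest run covered chr16:11330001-11370000 with ratios of 2.17, 2.24, 2.32 and 2.08. Its means were 3.96, 30.8, 29.7 and 63.9 RPM in DF and 2.30, 23.5, 27.1 and 59.5 in AF, against 1.01, 10.5, 11.4 and 28.6 in DSL. The highest ratios among the stretches of 3 were those of chr12:2730001-2760000, with 4.39, 4.30 and 4.70, where means were 8.10, 21.95 and 13.3 RPM in DF and 10.7, 27.1 and 17.0 in AF, against 1.74, 4.80 and 2.83 in DS1.

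Outside the fins most members were as even as other bins. The 5 other means lay within 1.5 times of each other in 73.0% of members, against 73.8% of bins with both fins at 1 RPM or more. They differed by more than 3 times, or included a 0, in 27 members (8.49%), against 1.84% of those bins, and 19 of the 27 had a ratio of at least 3. The rule sets an upper limit on these 5 means, and at low means a 0 or a wide spread is reached more easily. How far this choice raised the share was not tested. DSL was the highest of the 5 in 50.6% of members, against 48.3%. DS4, which the rule did not use, was at or below 0.5 of the lower fin mean in 317 of 318 members (99.7%), against 16.8% of bins with both fins at 1 RPM or more. The lower fin mean chose the members, so a high share is favoured by the choice and this is a description too. DS4 was low in general. It lay below all 5 other tissues in 51.3% of members and 50.6% of those bins. The median bin was higher in DF than in DS4 by 0.63 on the log2 scale. The DS4 mean is over 8 fish and the fin means are over 11. These 8 were the 7 fish with an H haplotype and L/LHR replicate 1, so DS4 is not balanced over genotypes. DS4 of H/L replicate 3 held only 2.69 M reads. The exception was chr08:17870001-17880000, where the lower fin was 1.75 times DS4. The members together took 1.18 ± 0.254% of the reads in DF and 1.204 ± 0.307% in AF, against 0.491 ± 0.143% in DSL, 0.367 ± 0.16% in DS4 and 0.400% to 0.438% in Pter, DS1, DS2 and DS3 (SD, n = 11 each and 8 for DS4).

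DF and AF were compared next, since the rule does not fix which fin is higher. The rule does leave out the 353 bins high in DF and not AF and the 57 high in AF and not DF. Large differences between the fins, and so calls, are thus less likely among members by choice. Asking AF to pass as well, when AF is the lower fin in most bins, can also favour members with AF higher. The part of this choice in the shares and calls was not tested. The largest ratio between the fin means of a member was 1.72. AF was above DF in 40.6% of members, against 33.8% of bins with both fins at 1 RPM or more, and in 30 of the 41 with a ratio of at least 3. The quasi-likelihood test of edgeR was run without a term for the fish, with Benjamini-Hochberg adjustment over all bins. By it 0 of 313 members tested passed an FDR of 0.05, against 0.228% of the 21056 bins tested. At an unadjusted p under 0.05 were 11 members, against 4.39% of all bins, and DESeq2 called 1 member, against 0.348% of bins. The median log2 difference of the members was 0.00048, against 0.0073 over all bins.

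With a term for each fish in edgeR, 6 members were called, all lower in DF than in AF, against 1.13% of all bins in either direction and 0.247% lower in DF. These 6 were named for this call. In chr16:9690001-9700000 the log2 difference was -0.70 ± 0.16 (SE, adjusted p = 0.0409), and in chr17:3420001-3430000, the bin of rank 10 above, -0.63 ± 0.13 (adjusted p = 0.0235), both by edgeR with the fish term. In chr06:10220001-10230000 it was -0.58 ± 0.096 (adjusted p = 0.00522), and this bin was also the one called by DESeq2. DF was lower in 9 of 11 fish in each of the last 2 bins and in 10 of 11 in the first. The other 3 were chr21:11550001-11560000 (-0.38 ± 0.086, adjusted p = 0.0403 by edgeR), chr12:10240001-10250000 (-0.35 ± 0.06, adjusted p = 0.00658) and chr04:9570001-9580000 (-0.32 ± 0.072, adjusted p = 0.0389), each lower in DF in 10 of 11 fish. Without the fish term their adjusted p was 0.0781 in chr06:10220001-10230000 and at least 0.499 in the others.

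**Figure D3:**
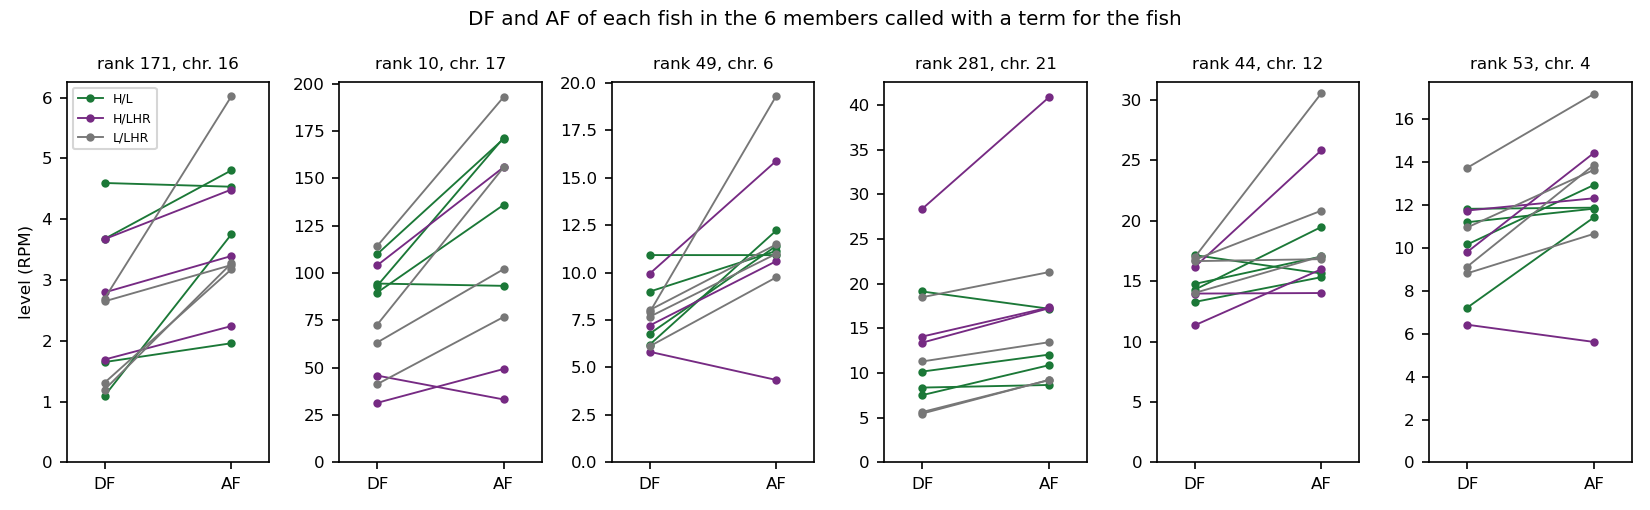
Read level in RPM in DF and AF of each of the 11 fish, joined by a line and coloured by genotype, for the 6 members called with a fish term, ordered by their log2 difference. AF is above DF in 9 or 10 of 11 fish in every panel.

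DSL and DS1, the posterior and anterior ends of the spine row, were compared to ask whether bins high in the fins were graded along the row. Both are among the 5 tissues whose highest mean the rule used. The rule sets an upper limit on both and not which is higher, but it leaves out bins where either is high against the fins. The part of this choice in the calls and shares was not tested. By edgeR's quasi-likelihood test 4 of 299 members tested were called, all 4 higher in DSL, against 0.299% of the 20368 bins tested and 0.201% higher in DSL. In chr12:10240001-10250000 the lowest, median and highest levels were 3.44, 4.97 and 7.53 RPM in DSL, against 0, 0.0261 and 0.174 in DS1, a log2 difference of 6.36 ± 0.34 (SE, adjusted p = 2.71e-12 by edgeR) that rests on 20 reads in DS1. In chr17:3430001-3440000 they were 9.95, 15.4 and 35.1 RPM in DSL, against 0, 0.778 and 2.62 in DS1, a log2 difference of 4.32 ± 0.33 (adjusted p = 5.08e-09 by edgeR). DSL was higher in 11 of 11 fish in both, and the groups did not overlap. Both bins were picked for this difference, which favours such a pattern, and its share over all bins was not counted.

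The other 2 calls were smaller. In chr20:9580001-9590000 the levels were 1.67, 2.84 and 4.20 RPM in DSL, against 0, 0.180 and 0.688 in DS1, a log2 difference of 3.70 ± 0.40 (adjusted p = 4.40e-06 by edgeR). In chr07:1560001-1570000 they were 4.50, 6.59 and 12.8 RPM in DSL, against 1.01, 1.67 and 2.44 in DS1, a log2 difference of 2.02 ± 0.20 (adjusted p = 7.25e-07 by edgeR). Both were higher in DSL in 11 of 11 fish, again without overlap, a pattern that their choice by this difference favours as well. DS1 held only 20 reads in chr12:10240001-10250000 and 70 in chr20:9580001-9590000. Both bins passed the filter on low counts through DSL, the tissue where they are high. The size of their difference is uncertain, and their calls are a description. Without that filter edgeR called both (log2 differences of 6.34 and 3.69), but this fit used the same reads and adds no support. With a term for each fish edgeR called the same 4 members, against 0.437% of bins. Their adjusted p by edgeR was then 1.52e-08 in chr12:10240001-10250000 and 1.92e-09 in chr17:3430001-3440000. It was 0.000179 in chr20:9580001-9590000 and 3.15e-05 in chr07:1560001-1570000. Without the libraries under 10 M reads 6 members were called, against 0.326%. At an unadjusted p under 0.05 were 15 members, against 4.43% of bins. The median log2 difference was 0.029 over the members tested and 0.0060 over all bins.

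In 3 of these 4 bins the means followed the order of the row. The 4 bins were picked for DSL above DS1, so the ends of this order were set by the choice and the order is a description. In chr12:10240001-10250000 the means were 0.0477, 0.124, 0.337, 0.660, 1.49 and 5.11 RPM in DS1, DS2, DS3, DS4, Pter and DSL, and 15.04 in DF and 19.0 in AF. In chr17:3430001-3440000 they were 0.918, 1.11, 1.76, 3.27, 13.7 and 19.8 RPM in the same order, and 123 in DF and 140 in AF. In chr20:9580001-9590000 DS4, Pter and DSL were alike, with 3.43, 3.57 and 2.85 RPM, against 0.251 in DS1, while DF had 11.2 and AF 10.8, so that this bin did not follow the order. In chr07:1560001-1570000 the means were 1.72, 2.33, 2.53, 3.37, 5.74 and 7.34 RPM from DS1 to DSL, and 18.5 in DF and 17.5 in AF. The HOXDB bin had low levels in DS1 and DS2 as well, and unlike these members its DSL level was above both fins.

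**Figure D4:**
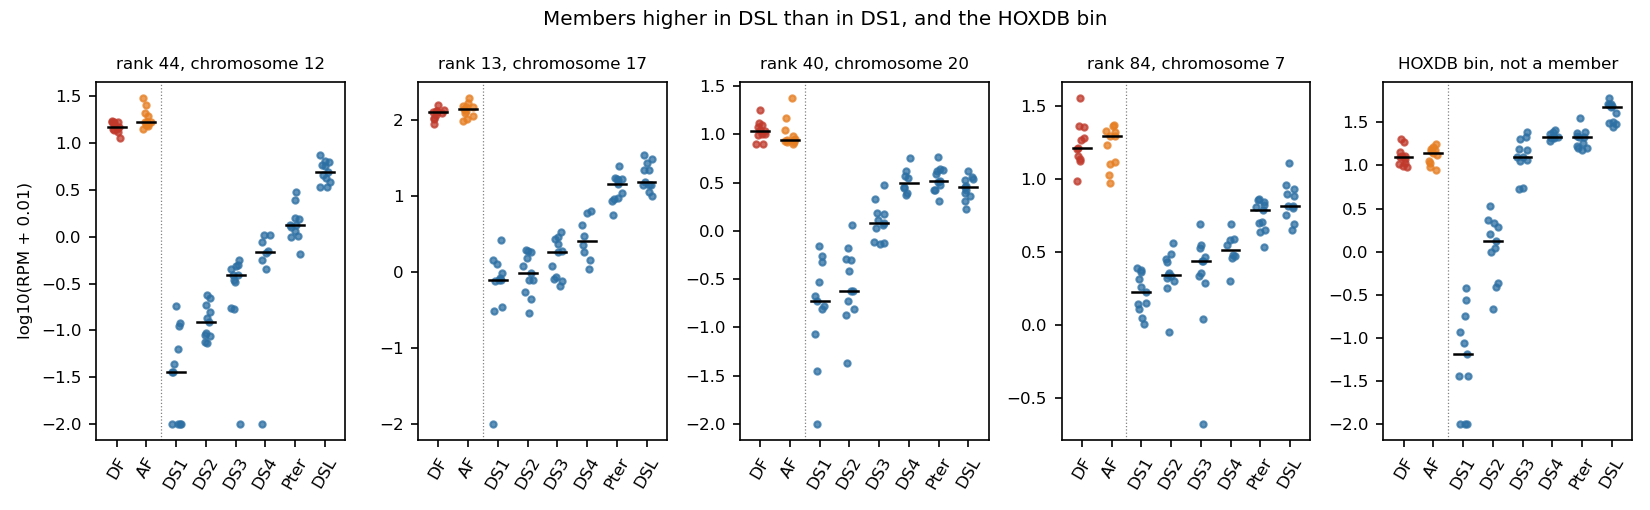
Read level in each library, as log10 of RPM plus 0.01, of the 4 members called higher in DSL than in DS1 and of the HOXDB bin. Columns are DF and AF, then the spine row from DS1 to DSL, each point is 1 fish and each bar the median. In the 4 members the DSL libraries lie above all DS1 libraries and the fin medians above the DSL median, and in the HOXDB bin the DSL median is above both fin medians.

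Of the 4 bins, 3 adjoin another member. Next to chr12:10240001-10250000 lies the bin of rank 12, in which DSL had 139 reads and DS1 1 read, too few for the edgeR filter. DESeq2 called it (adjusted p = 2.39e-12). It entered that test through DSL, the tissue where it is high, so the size of its difference is uncertain. Neighbouring bins can share a gene, so it is not separate evidence for the called bin. Next to chr20:9580001-9590000 lies the bin of rank 4, with means of 0.138 RPM in DSL and 0.0119 in DS1, also under that filter. Next to chr17:3430001-3440000 lies chr17:3420001-3430000, which was flat along the row, with means of 5.38 RPM in DSL and 5.30 in DS1 and a log2 difference of -0.05 ± 0.36 (adjusted p = 1.0 by edgeR). These 2 neighbours on chromosome 17 had ratios of 6.24 and 11.1 between the lower fin and the highest other tissue. The opposite order was seen in chr10:12820001-12830000, with means of 3.15 RPM in DSL and 6.88 in DS1. Its log2 difference of -1.15 ± 0.30 was not called by edgeR (adjusted p = 0.158, 0.022 to 0.480 over the alternatives). It was called by DESeq2 (adjusted p = 0.022). DESeq2 called 9 members, 7 higher and 2 lower in DSL, this bin among the 2, against 0.519% of bins.

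Genotype at HOXDB was compared within each fin, in the 7 fish with an H haplotype against the 4 L/LHR fish. In DF, edgeR called 0 of 317 members, against 0.00456% of 21910 bins, and in AF 0 of 316, against 0% of 21465. At an unadjusted p under 0.05 were 26 members in DF, against 4.26% of bins, and 14 in AF, against 3.37%, and DESeq2 called 0 in both, against 0.0279% of bins in DF and 0.0177% in AF. The median log2 difference of the members was 0.11 in DF, against -0.0065 over all bins, and -0.14 in AF, against -0.0035. These medians depended on single fish. Leaving out 1 fish gave 0.043 (without L/LHR replicate 3) to 0.193 (without L/LHR replicate 1) in DF and -0.097 (without L/LHR replicate 2) to -0.218 (without L/LHR replicate 3) in AF. The members at an unadjusted p under 0.05 then numbered 13 (without L/LHR replicate 2) to 36 (without H/L replicate 3) in DF and 9 (without L/LHR replicate 2 or 4) to 33 (without H/LHR replicate 2) in AF. The absence of calls does not show that genotypes were alike. In chr03:11820001-11830000, the bin of rank 1, H/L fish averaged 21.8 ± 7.7 RPM in DF and 21.1 ± 2.4 in AF (SD, n = 4). H/LHR fish averaged 19.1 ± 4.5 RPM in DF and 20.8 ± 11 in AF (SD, n = 3), and L/LHR fish 25.04 ± 9.5 RPM in DF and 28.2 ± 12 in AF (SD, n = 4). The genotypes overlapped in both fins. Over the 12 members of largest ratio the log2 difference ran from -0.65 to 0.17 in DF and from -0.64 to -0.095 in AF, and none was called.

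The members shifted together in single libraries, of the fins and of other tissues, in some along with bins in general. The median member deviated from its mean over fish by -0.58 on the log2 scale in AF of H/LHR replicate 1 and by 0.41 in AF of H/LHR replicate 2, where the median of all bins with both fins at 1 RPM or more deviated by -0.42 and 0.09. In DF the median member ranged from -0.30 in L/LHR replicate 4 to 0.19 in H/L replicate 2, where the median of all those bins deviated by -0.02 and 0.04. Outside the fins it ranged wider, from -2.18 in DS4 of H/L replicate 3 to 0.66 in Pter of H/L replicate 2. The median of all those bins deviated by -0.76 and 0.20 there. In Pter of H/L replicate 3 the median member deviated by -1.25, against -0.24. The difference of the genotype effect between the fins was tested after these values were seen, and edgeR called 0 of 318 members with and without a fish term. At an unadjusted p under 0.05 were 8 members without the term, against 1.29% of 22464 bins, and 81 with it, against 7.26%. Since the members share the same few libraries, this count was not read as a result about genotype, and the part of single libraries in it was not tested.

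Allele ratios in the members were compared between DF and AF within fish, since the rule used the reads of both alleles summed. The 318 members held 7909 listed sites, of which 29.1% were heterozygous in at least 1 fish, against 23.4% of all sites, and 252 members had such a site. A heterozygous site needed at least 2 reads of the minor allele, and all sites include those of bins under 1 RPM. These 2 shares are thus not at like depth. In 84 members 407 sites were tested, each heterozygous in at least 4 fish with at least 20 reads in both fins. By limma on the difference per fish in log2 allele ratio, 0 of the 407 were called, against 0.0316% of 15806 sites. At an unadjusted p under 0.05 were 14, against 5.75% of all sites. The median size of the change was 0.17 on the log2 scale at member sites and 0.15 at all sites.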

How the data were processed

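The authors trimmed reads, mapped them with STAR to their own Apeltes assembly, called variants and counted the reads of each allele per site with GATK ASEReadCounter (GATK 4.1.4.1, cutadapt 2.4 and SAMtools 1.10 in the submitters' processing notes). The deposited values are raw counts without normalization. A read counts at each site it covers, so depth (2.15 to 46.6 M) is not a number of fragments.

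Total counts (both alleles) were summed per 10 kb bin. The members and comparisons were chosen with earlier results of these data known. Bins were compared with edgeR 4.0.16 (filterByExpr, TMM, quasi-likelihood F-test, no block) in R 4.3.3, with DESeq2 1.42.0 as an alternative, and allele ratios with limma 3.58.1 (0.5 added to each count), at an FDR of 0.05. The same replicate number within a genotype is the same fish, and DF and AF deviations of a fish correlated with r of 0.409 to 0.717, against at most 0.404 between fish, so the fish term is given beside results it changes. The fish are separate animals of laboratory clutches. The p-values of the genotype comparisons within a fin, the allele test and the fits with a fish term measure the spread among them. Fits across tissues without that term treat libraries of the same fish as independent, so their p-values do not. Named bins are the 12 of largest ratio, the 5 of highest fin level, those past the FDR, the longest run, 3 bins on either side of the threshold and the HOXDB bin. Other bins were named after their values were seen. Other alternatives were bin size, level, ratio, denominator, filters, sites used, low libraries, FDR and each fish left out.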

Additional observations from a re-analysis of the deposited data

Results flagged for a closer look

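Of 105 groups of samples tested over the named bins, 7, each of 4 samples, had 1 sample far from the rest, where chance flags about 1 in 20. In L/LHR fish, AF of replicate 2 had 45.5 RPM in chr03:11820001-11830000, against 20.8 to 24.01 in the other 3, and 3.23 RPM in chr16:9110001-9120000, against 1.05 to 1.34. It also had 23.9 RPM in chr20:9580001-9590000, against 8.37 to 9.60. In H/L fish, DF of replicate 3 had 73.3 RPM in chr10:12820001-12830000, against 152 to 167. In chr21:12010001-12020000 replicate 2 of H/L had 99.3 RPM in DF, against 9.71 to 20.0, and 86.6 RPM in AF, against 12.9 to 14.1. DF of L/LHR replicate 4 had 14.0 RPM in chr12:10240001-10250000, against 16.7 to 17.0.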

How the results depend on the processing

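The number of members was 59 with edgeR's TMM library sizes and 59 with DESeq2 size factors. It was 90 with only sites listed in every library (69 of them among the 318). In 5 kb bins it was 502 and in 20 kb bins 169. With the median over fish it was 309 (202 of them among the 318), at a ratio of 1.5 it was 1743 and at a ratio of 3 it was 41. Leaving out each fish in turn gave 279 to 346 members, and leaving out the libraries under 10 M reads gave 266, of which 237 were among the 318. For DF over AF, DESeq2 called 1 member, the replicate block called 6, and leaving out each fish in turn gave 0 to 1, the 1 without H/LHR replicate 1. For DSL over DS1, DESeq2 called 9 members, the replicate block 4, the fits without the libraries under 10 M reads and without a filter on low counts 6 each, and leaving out each fish in turn 4 to 5. The genotype comparisons and the allele test gave 0 calls under every alternative run. The replicate block changed no other call. Among the 12 largest ratios, the most-read site alone gave 350 in chr20:9570001-9580000, 35.8 in chr10:9810001-9820000 and 55.2 in chr12:10230001-10240000. TMM gave 7.93 in chr17:3420001-3430000. Low reads in the spines limit the ratios of bins with few counted reads outside the fins, and 7 against 4 fish limit the genotype comparison.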
